A study of Mus musculus with 11 samples.

Results

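DNA repair genes were compared between Klf5 knockout and wild-type mouse bone marrow LSK cells. A gene was taken where the biological process annotation deposited with the arrays contains the term DNA repair but neither DNA replication nor mitosis. The rule found 190 rows, and after the row of highest mean was kept for each gene there were 171 genes, of 206 that carry the DNA repair term. The other 35 carry a replication or mitosis term as well. Each row is a transcript cluster, the array's unit for 1 gene, and 28944 transcript clusters were tested in all.

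LSK cells are the bone marrow cells that lack lineage markers and carry Sca-1 and Kit on their surface, a fraction which holds the blood stem cells and early progenitors. Here they were sorted by flow cytometry from mice of strain C57BL/6, and their total RNA was hybridised to Affymetrix Mouse Gene 1.0 ST arrays. The groups are KLF5 KO, with 4 arrays (knockout replicates 2 to 5), and KLF5 WT, with 5 arrays (wild-type replicates 2 to 6), and another array of each genotype was normalized in a table of its own. The sample descriptions name MxlCre, read here as Mx1-Cre, in both groups, so the wild-type cells carry the recombinase too. Mx1 has an interferon-inducible promoter that is active in many cell types besides LSK cells, so the deletion need not be limited to them. The sources used here do not give the animals' age, how the recombinase was induced and how long before the sort, or whether each array holds 1 animal. The p-values therefore set each group difference only against the spread among these samples, some of which may be technical. Precision is limited by the small number of arrays.

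Cells keep separate repair pathways for separate lesions. Base excision repair removes single damaged bases, nucleotide excision repair cuts out bulky adducts, and mismatch repair corrects copying errors. Homologous recombination and non-homologous end joining rejoin double-strand breaks, the Fanconi anaemia pathway unhooks crosslinks between the strands, and the kinases ATM and ATR signal damage to the cell cycle. Blood stem cells are known to depend on several of these pathways, and loss of the Fanconi genes in particular leads to bone marrow failure. Klf5 is a zinc-finger transcription factor that binds GC-rich and CACCC-type sequences.

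Klf5 itself was at 6.72, 6.58, 6.76 and 6.69 in knockout replicates 2 to 5, against 6.77, 6.98, 6.94, 6.98 and 6.77 in wild-type replicates 2 to 6. All values are log2 RMA signals, which set a gene against itself on other arrays and not against other genes. Each knockout array lay below each wild-type array, with the 2 groups nearly touching, and the difference, knockout minus wild type, was -0.20 (95% interval -0.37 to -0.027). It did not pass adjustment over all tested rows (limma adjusted p = 0.916), and since the sources used here do not say which probes fall in the deleted part, the labels are checked only in part.

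The arrays of each genotype also differed among themselves. Haemoglobin signal (mean of the 2 Hbb rows) was 9.16, 7.15, 7.04 and 10.61 in the knockout arrays, against 9.88, 6.50, 6.97, 7.44 and 10.66 in the wild-type arrays. Knockout replicates 2 and 5 and wild-type replicate 6 held both Xist and Y-linked signal, knockout replicates 3 and 4 and wild-type replicate 5 held Xist without Y-linked signal, and wild-type replicates 2, 3 and 4 the reverse. Kit lay between 9.79 and 10.21 in knockout and between 10.09 and 10.38 in wild type. Ly6a, the gene of Sca-1, varied more, between 6.57 and 8.54 in knockout and between 6.85 and 8.29 in wild type. All 15 LSK markers were above the negative-control median on all 9 arrays, with a median difference of 0.026. Of 13 B cell markers 10 had lower values in knockout, with list means of 5.33 to 5.82 in knockout and 5.36 to 6.58 in wild type, a median difference of -0.27, and 5 of the 13 were above the negative-control median on every array. Of 12 erythroid markers 7 had higher values in knockout, with a median difference of 0.041 and list means of 6.68 to 7.38 in knockout and 6.52 to 7.42 in wild type. Of 14 neutrophil and monocyte markers 11 had higher values in knockout, with a median difference of 0.12. Their list means were 6.28 to 7.01 in knockout and 6.23 to 6.49 in wild type. Of these 14 markers 8 were above the negative-control median on every array. Of 13 T and NK cell markers 8 had lower values, with a median of -0.015. Of 12 stromal and endothelial markers 10 had lower values, with a median of -0.038. Above the negative-control median on every array were 9 of the 12 erythroid, 5 of the 13 T and NK cell and 4 of the 12 stromal and endothelial markers. What part these differences between arrays have in the values below was not tested.

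No DNA repair gene passed the adjusted threshold of 0.05, and the lowest limma adjusted p among the 171 was 0.916. No row of the whole table passed either, a background of 0 percent. At an unadjusted p under 0.05 there were 6 of the 171 repair genes, 3.51%, against 4.08% of all tested rows. Of these, 5 had higher values in knockout, 2.92% against 1.45% of all rows, and 1 had lower values, 0.585% against 2.63% of all rows. The 5 were Msh3, Smg1, Dclre1c, Apex1 and Rad17. The knockout and wild-type arrays did not overlap for 4 repair genes, 2.34%, against 0.985% of all rows. Knockout lay above for Msh3, Rad17 and Ticrr (1.75% against 0.259%) and below for Eme2 (0.585% against 0.726%). The count at unadjusted p under 0.05 moved with single arrays, and so did the share of all rows. It was 2 without knockout replicate 3 (1.17%, against 2.76% of all rows) and 0 without knockout replicate 4 (against 3.78%). It was 10 without wild-type replicate 2 (5.85%, against 4.96%), 4 without wild-type replicate 3 (2.34%, against 3.15%) and 3 without wild-type replicate 5 (1.75%, against 3.26%). Of the 59 repair genes named by rule or for comparison, 51 had a difference that moved by more than 1.5 times when 1 array was left out.

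**Figure D1:**
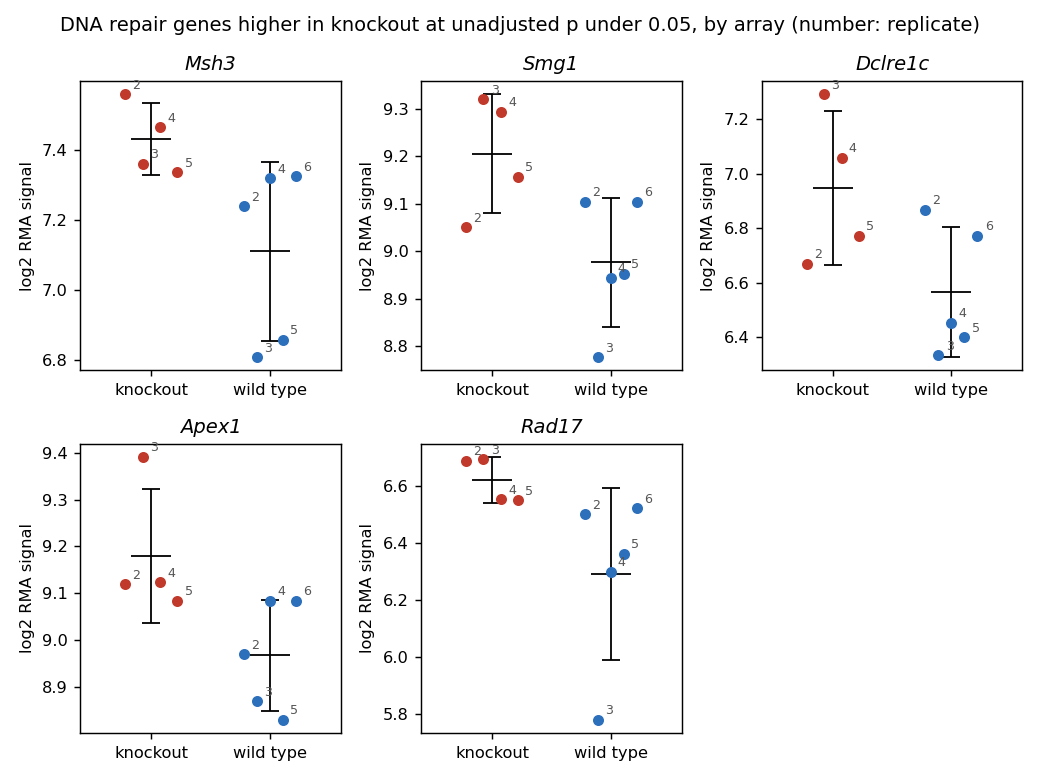
Log2 RMA signal of the 5 DNA repair genes with higher values in knockout at unadjusted p under 0.05, with knockout arrays on the left and wild-type arrays on the right of each panel, 1 point an array labelled with its replicate number and bars for the mean ± SD (n = 4 and n = 5). Only Msh3 and Rad17 show groups that do not overlap, and the vertical axes are cut to each gene's range.

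The differences of the members as a whole leaned towards higher values in knockout. In knockout 105 of the 171 genes were higher and 66 lower, so 61.4% were higher, against 44.1% of all rows. The median difference was 0.036, against -0.019 for all rows, and the middle of the distribution lay between -0.047 and 0.20 (lower and upper quartile). The extremes were Eme1 at -0.42, picked out here after its values were seen, and Hspa1a at 0.70. A difference of more than 0.5 in either direction was held by 4 of the 171 genes, against 624 of the 28944 rows. The 4 were Hspa1a, Xpa, Pnp and Brcc3, all with higher values in knockout. The 95% interval lay within 1 log2 unit of 0, a 2-fold difference, for 161 of the 171 genes (94.2%, against 94.5% of all rows) and within 0.5 log2 units for 96 (56.1%, against 71.9%). Repair genes also varied more between arrays than the table as a whole: the median range over the 9 arrays was 0.825, against 0.580, and the median standard error of the difference 0.164, against 0.116. Among rows above the negative-control median on all 9 arrays, which leaves out dim rows, the median range was 0.893 for 158 repair genes and 0.672 for 15700 rows. Other lists also exceeded all rows: the median range was 0.867 for the 35 repair genes left out by the rule, 0.761 for proliferation genes and 0.983 for LSK markers. In bulk RNA, fewer cells of a type and less RNA per cell cannot be told apart.

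**Figure D2:**
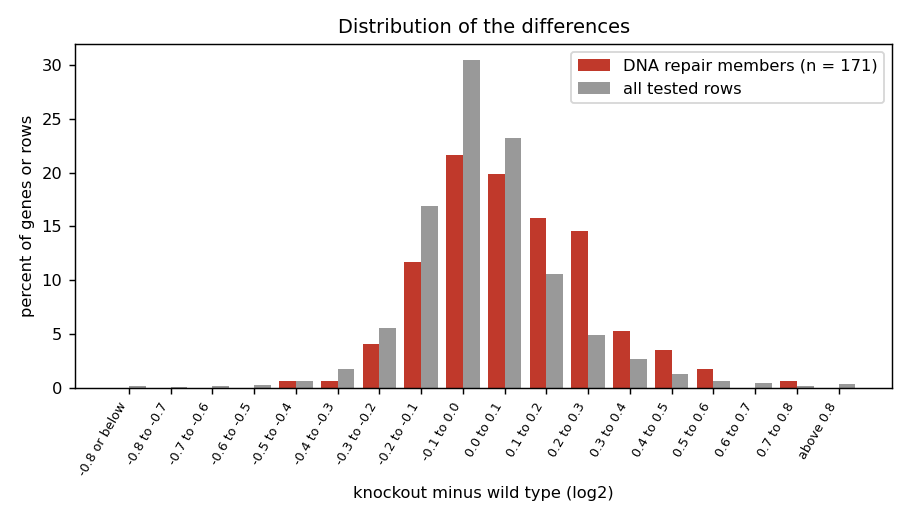
Share of genes or rows, in percent, by knockout minus wild type difference on the log2 scale, for the 171 DNA repair genes and for all tested rows. The repair genes hold larger shares than all rows in each bin between 0.1 and 0.6.

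The wild-type arrays differed among themselves by more than the groups did. The mean signal of the 171 genes was 7.38, 7.46, 7.35 and 7.48 in the knockout arrays, against 7.48, 7.26, 7.28, 7.23 and 7.47 in the wild-type arrays. Wild-type replicates 3, 4 and 5 were below every knockout array, whereas wild-type replicates 2 and 6 were above knockout replicates 2, 3 and 4. The group means were 7.42 ± 0.061 over the 4 knockout arrays and 7.35 ± 0.12 over the 5 wild-type arrays (mean ± SD). Wild-type replicates 2 and 6 also had the highest Hbb signal of their genotype, at 9.88 and 10.66, and the highest B cell marker means, at 6.11 and 6.58. Knockout replicate 5 likewise had the highest Hbb signal of its genotype, at 10.61, and the highest member mean, at 7.48. Knockout replicate 3 combined a member mean of 7.46 with an Hbb signal of 7.15. Whether the 2 measures are related was not tested. The median difference of the members was between 0.020 and 0.086 when 1 array was left out, lowest without wild-type replicate 5 and highest without knockout replicate 4. With array weights in the fit the median difference of the members was 0.005, against -0.013 for all rows.

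**Figure D3:**
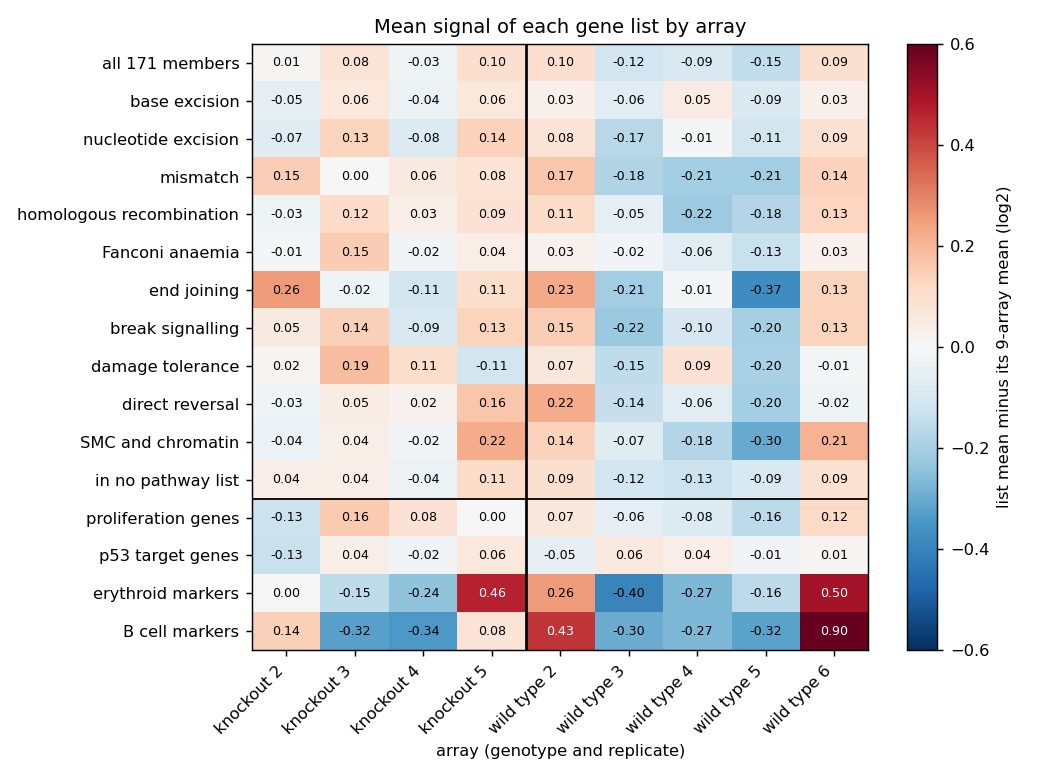
Mean log2 signal of each gene list on each array minus the list's mean over the 9 arrays, with knockout arrays left of the heavy line and wild-type arrays right of it; repair pathways are above the horizontal line and comparison lists below it. Wild-type replicates 3, 4 and 5 are at or below 0 in nearly all repair rows, and wild-type replicates 2 and 6 are above 0 in most of them.

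The 10 pathway lists held 129 of the 171 genes, 3 of them in more than 1 list, and 42 genes were in none. Among the 171 genes, the pathway medians ran from 0.008 in nucleotide excision repair to 0.23 in mismatch repair, and each lay above the -0.019 of all rows. No listed pathway gene outside the 171 passed adjustment (lowest limma adjusted p = 0.916). The medians of these listed genes were 0.053 in base excision, 0.14 in nucleotide excision, 0.072 in mismatch repair and 0.077 in homologous recombination. They were 0.18 in break signalling, 0.069 in damage tolerance and 0.054 in chromatin factors. Fanconi anaemia had -0.033 and end joining -0.077, with 2 of 6 and 1 of 6 genes higher in knockout. The 1 direct reversal gene differed by -0.12.

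**Figure D4:**
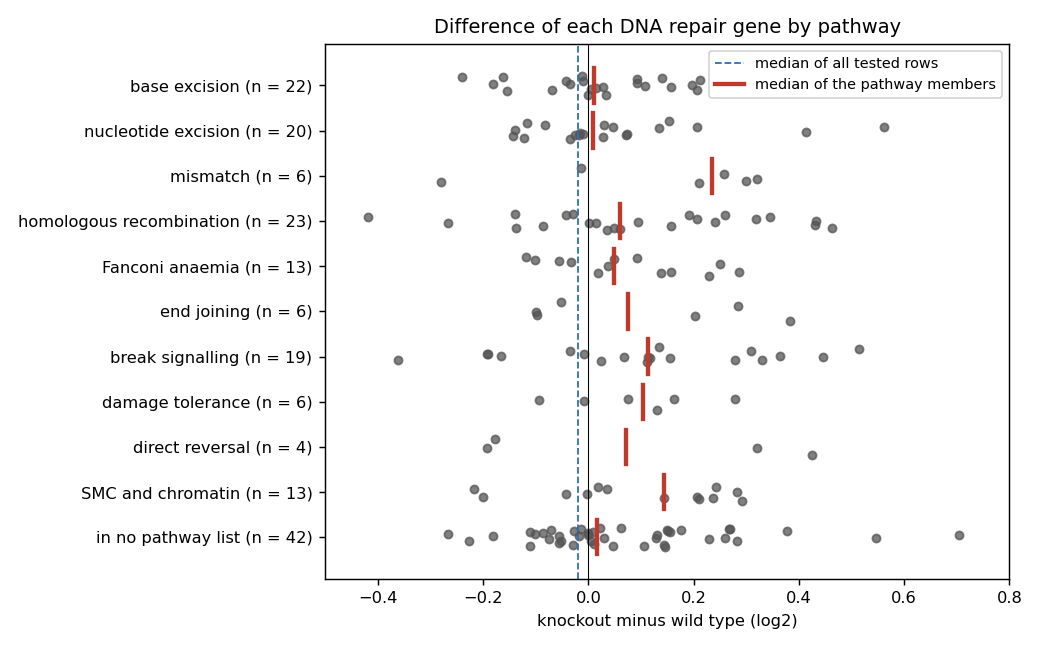
Knockout minus wild type difference (log2) of each DNA repair gene, 1 point a gene with small vertical jitter, in rows by repair pathway. Red bars mark each pathway's median, from 0.008 in nucleotide excision repair to 0.23 in mismatch repair, and the dashed line the median of all tested rows, -0.019.

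In base excision and single-strand break repair, 12 of 22 genes were higher in knockout and 10 lower, and the median was 0.011. Apex1, the main endonuclease that cuts the strand at a site without a base, was at 9.12, 9.39, 9.12 and 9.08 in the knockout arrays, against 8.97, 8.87, 9.08, 8.83 and 9.08 in the wild-type arrays. The arrays overlapped only at the value 9.08, shared by 1 knockout and 2 wild-type arrays, and the difference was 0.21 (95% interval 0.006 to 0.42). Parp1, the sensor of strand breaks, was at 8.75 ± 0.21 over the 4 knockout arrays and 8.75 ± 0.36 over the 5 wild-type arrays (mean ± SD), with a 95% interval of -0.41 to 0.41. Ogg1, the glycosylase for oxidised guanine, differed by 0.006 (95% interval -0.18 to 0.19), and Xrcc1, the scaffold of single-strand break repair, by -0.16 (95% interval -0.40 to 0.071). Xrcc1 was at 6.53 in knockout replicate 3 and between 6.93 and 7.12 on the other 8 arrays. The 7 listed genes that are not among the 171 had a median difference of 0.053.

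Nucleotide excision repair was evenly split, with 10 of 20 genes higher and 10 lower. Xpa, which verifies the damage and holds the incision complex together, had the largest difference of the pathway, 0.56 (95% interval -0.076 to 1.20). It was at 7.53, 7.26, 7.89 and 7.60 in the knockout arrays, against 7.40, 6.11, 6.69, 7.34 and 7.50 in the wild-type arrays. Wild-type replicate 3, at 6.11, lay far below the others, and without it the difference was 0.34. Ercc6, the transcription-coupled repair factor of Cockayne syndrome, was at 6.54, 7.39, 6.31 and 7.38 in the knockout arrays, against 7.17, 5.60, 6.47, 6.28 and 6.94 in the wild-type arrays, a difference of 0.41 (95% interval -0.36 to 1.19) with wide overlap. Xpc, which finds lesions outside transcribed strands, differed by 0.13 (95% interval -0.27 to 0.54). Ercc1, the partner of the nuclease that cuts on the 5-prime side of the lesion, differed by -0.025 (95% interval -0.32 to 0.27), and Ercc2, a helicase of TFIIH, by -0.14 (95% interval -0.43 to 0.15). Xab2, which binds Xpa, differed by -0.12 (95% interval -0.29 to 0.044), with a wild-type maximum of 7.71. The 11 listed genes that are not among the 171 had a median of 0.14. At unadjusted p under 0.05 there was 1 of them, higher in knockout (9.09%, against 1.45% of all rows). The listed genes outside the 171 also held 1 such gene of 19 in homologous recombination, 1 of 6 in Fanconi anaemia and 1 of 12 in damage tolerance.

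Mismatch repair had the highest median of the pathways, 0.23 over 6 genes, 4 of them higher and 2 lower in knockout. Msh3, which recognises insertion and deletion loops, was at 7.56, 7.36, 7.47 and 7.34 in the knockout arrays, against 7.24, 6.81, 7.32, 6.86 and 7.33 in the wild-type arrays. Every knockout array lay above every wild-type array, with 7.34 as the lowest knockout and 7.33 as the highest wild-type value, and the difference was 0.32 (95% interval 0.029 to 0.61). Msh6, which recognises base mismatches, was at 8.38, 8.35, 8.42 and 8.51 in the knockout arrays, against 8.77, 8.10, 7.83, 7.57 and 8.74 in the wild-type arrays. Wild-type replicates 2 and 6 were above the knockout arrays and wild-type replicates 3, 4 and 5 below all of them. The difference was 0.21 (95% interval -0.34 to 0.76), and 0.054 without wild-type replicate 5. Pms2, an endonuclease of the pathway, differed by -0.013 (95% interval -0.27 to 0.25), and Exo1, the nuclease that removes the mismatched strand, by 0.26 (95% interval -0.12 to 0.63). Pms2 and Exo1 were chosen after their values were seen.

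Promoter windows of 300 bases around the gene's start, from RefSeq on GRCm38.p6, were searched for the GC box, GGGGCGGGG or on the other strand CCCCGCCCC, and for the CACCC box, CCACACCC or GGGTGTGG on the other strand. Of the 143 repair genes with a window in the RefSeq table, 26 held a GC box (18.2%), against 3130 of 27025 windows in the table (11.6%). The CACCC box was in 10 of the 143 (6.99%), against 964 of 27025 (3.57%). The comparison windows are not limited to genes expressed in LSK cells. Whether the larger shares are particular to repair genes was not tested. These matches are descriptions of the sequence, and binding was not measured.

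Homologous recombination had 16 of 23 genes higher and 7 lower in knockout, with a median of 0.061. The MRE11 complex, which binds and trims broken ends, was split. Rad50, its long coiled-coil subunit, was at 10.31, 9.97, 9.81 and 10.38 in the knockout arrays, against 10.35, 9.47, 9.54, 9.04 and 10.04 in the wild-type arrays. Mre11a, the nuclease, was at 8.35, 8.43, 8.89 and 8.57 in the knockout arrays, against 8.43, 8.51, 7.65, 7.61 and 8.43 in the wild-type arrays. In both, wild-type replicates 4 and 5 were below all knockout arrays, and wild-type replicates 2 and 6 within their range. The difference was 0.43 (95% interval -0.14 to 0.999) for Rad50 and 0.43 (95% interval -0.071 to 0.94) for Mre11a. Nbn, the remaining subunit, which recruits ATM, differed by -0.087 (95% interval -0.40 to 0.22), and a second Nbn row by -0.16. Brip1, the BRCA1-associated helicase, was at 7.55, 7.82, 7.58 and 7.50 in the knockout arrays, against 7.65, 7.35, 7.01, 6.89 and 7.57 in the wild-type arrays, a difference of 0.32 (95% interval -0.052 to 0.69). Brca2, which holds and loads recombination proteins at breaks, differed by 0.036 (95% interval -0.24 to 0.31). Xrcc2, another recombination factor, was high on knockout replicates 3 and 4 only, at 6.72 and 6.47, with the other 7 arrays between 5.29 and 5.63. Mre11a, Nbn and Xrcc2 were chosen after their values were seen.

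Eme2, a partner of the structure-specific nuclease Mus81, was the gene whose knockout arrays all lay below the wild-type arrays. It was at 6.36, 6.24, 6.42 and 6.33 in the knockout arrays, against 6.43, 6.60, 6.45, 6.44 and 6.47 in the wild-type arrays. The groups nearly touched, at 6.42 in knockout replicate 4 against 6.43 in wild-type replicate 2, and the difference was -0.14 (95% interval -0.29 to 0.015). Eme1, the other partner of Mus81, had a difference of -0.42 (95% interval -0.98 to 0.15) and was at 5.41, 5.62, 5.65 and 6.30 in the knockout arrays, against 6.08, 6.02, 6.90, 5.67 and 6.15 in the wild-type arrays, with overlap. Mus81 itself was below the negative-control median on all 9 arrays. The 19 listed recombination genes outside the 171 had a median of 0.077.

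The Fanconi anaemia genes had 9 of 13 higher and 4 lower values, with a median of 0.048. None of the 13 was at unadjusted p under 0.05, against 4.08% of all rows. The same held for the members in nucleotide excision repair, homologous recombination, damage tolerance, direct reversal, and SMC complexes and chromatin factors. Fancb, an X-linked subunit of the core complex, was at 5.56, 5.86, 5.48 and 5.39 in the knockout arrays, against 5.56, 5.33, 5.12, 5.26 and 5.44 in the wild-type arrays, a difference of 0.23 (95% interval -0.038 to 0.50). It was above the negative-control median on only 4 of the 9 arrays. Fanca, another core subunit, differed by 0.092 (95% interval -0.12 to 0.30), with wild-type replicate 3 apart at 6.54, and by 0.017 without that array. Fancd2, which the core complex marks with ubiquitin, was at 6.27, 6.86, 6.63 and 6.42 in the knockout arrays, against 6.39, 6.93, 6.46, 5.56 and 6.12 in the wild-type arrays, a difference of 0.25 (95% interval -0.30 to 0.81), with wild-type replicate 5 lowest, and the difference was 0.067 without that array. Fancl, the ubiquitin ligase, differed by 0.14 (95% interval -0.36 to 0.64), and a second Fancl row by 0.21. Faap100, a core complex partner, had -0.12 (95% interval -0.37 to 0.13).

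End joining had 3 of 6 genes higher and 3 lower in knockout, with a median of 0.076. Dclre1c, or Artemis, the nuclease that opens hairpin ends, was at 6.67, 7.29, 7.06 and 6.77 in the knockout arrays, against 6.87, 6.33, 6.45, 6.40 and 6.77 in the wild-type arrays. The difference was 0.38 (95% interval 0.026 to 0.74), and wild-type replicates 2 and 6 lay inside the knockout range. Prkdc, the DNA-dependent protein kinase that activates it, was at 8.07, 7.74, 7.74 and 7.74 in the knockout arrays, against 7.74, 7.72, 7.48, 7.41 and 7.74 in the wild-type arrays. Knockout replicates 4 and 5 and wild-type replicates 2 and 6 held an identical value, and its difference was 0.20 (95% interval -0.038 to 0.45). Shared values of this kind are common in the table: 95 of the 171 genes (55.6%) had an equal value, to 6 decimals, on 2 or more arrays, against 57.5% of all rows. Xrcc5 and Xrcc6, the Ku proteins that cap broken ends, differed by -0.097 (95% interval -0.59 to 0.39) and -0.052 (95% interval -0.49 to 0.38). Nhej1, which bridges the ends for ligation, differed by -0.10 (95% interval -0.49 to 0.29). Xrcc4, the scaffold of the ligase and chosen after its values were seen, differed by 0.28 (95% interval -0.43 to 1.001). It was at 6.50 in wild-type replicate 5, and without that array its difference was -0.001.

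Double-strand break signalling had 13 of 19 genes higher and 6 lower, with a median of 0.11. Rad17, which loads the checkpoint clamp onto damaged DNA, was at 6.69, 6.70, 6.55 and 6.55 in the knockout arrays, against 6.50, 5.78, 6.30, 6.36 and 6.52 in the wild-type arrays. Every knockout array lay above every wild-type array, with 6.55 as the lowest knockout and 6.52 as the highest wild-type value, and the difference was 0.33 (95% interval 0.002 to 0.66). Without wild-type replicate 3, at 5.78, it was 0.20. Rad1, a subunit of that clamp, was at 7.25, 6.84, 6.37 and 6.37 in the knockout arrays, against 6.25, 5.63, 5.91, 6.998 and 6.53 in the wild-type arrays, a difference of 0.45 (95% interval -0.20 to 1.09), with wide overlap. Topbp1, which the clamp brings to ATR, differed by 0.16 (95% interval -0.070 to 0.38), and Atrip, the partner of ATR, by 0.12 (95% interval -0.041 to 0.28). Rad1, Topbp1 and Atrip were chosen after their values were seen. Of the kinases, Atr differed by 0.11 (95% interval -0.15 to 0.37) and a second Atr row by 0.02, Atm by 0.11 (95% interval -0.26 to 0.48) and Chek1, the effector of ATR, by 0.14 (95% interval -0.44 to 0.71). Mdc1, the scaffold on phosphorylated histone H2AX, differed by -0.17 (95% interval -0.48 to 0.15).

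The promoter window of Rad17 (RefSeq, GRCm38.p6, chr13:100651012-100651311, minus strand, 5′ to 3′) is printed because Rad17 is among the genes whose groups did not overlap. It holds neither the GC box nor the CACCC box.
Rad17: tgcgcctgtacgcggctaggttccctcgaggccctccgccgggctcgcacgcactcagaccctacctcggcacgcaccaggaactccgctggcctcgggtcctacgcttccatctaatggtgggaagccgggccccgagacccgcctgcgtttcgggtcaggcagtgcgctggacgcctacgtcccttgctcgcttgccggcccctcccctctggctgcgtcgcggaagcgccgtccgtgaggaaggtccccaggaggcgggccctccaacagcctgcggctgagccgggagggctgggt

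The BRCA1-A complex, which edits ubiquitin chains at breaks, had members on both sides. Brcc3, its deubiquitinase, was at 7.997, 8.74, 8.33 and 9.16 in the knockout arrays, against 8.74, 6.89, 7.99, 7.75 and 8.83 in the wild-type arrays, a difference of 0.52 (95% interval -0.39 to 1.42) that ranged from 0.23 to 0.71 when 1 array was left out. Uimc1, which binds the ubiquitin chains, differed by 0.31 (95% interval -0.18 to 0.79). Abraxas1, the scaffold, differed by -0.19 (95% interval -0.44 to 0.052), Babam1 by -0.19 (95% interval -0.90 to 0.52) and Babam2 by -0.36 (95% interval -0.86 to 0.14). Babam1 lay between 7.22 and 7.45 on the knockout arrays and between 6.46 and 8.25 on the wild-type arrays. Uimc1 and Babam2 were chosen after their values were seen.

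**Figure D5:**
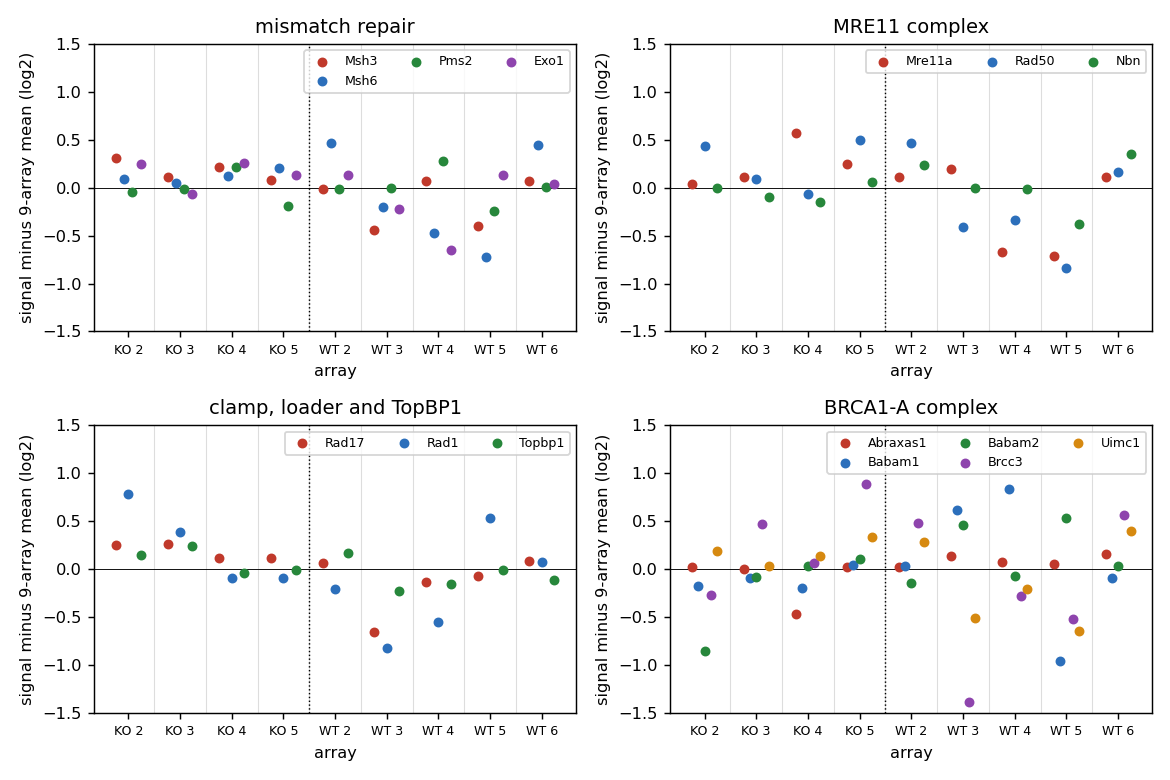
Signal of each subunit minus its own 9-array mean (log2) by array, with knockout arrays (KO) left of the dotted line and wild-type arrays (WT) right of it, for mismatch repair, the MRE11 complex, the checkpoint clamp with its loader and the BRCA1-A complex. Msh6, Rad50 and Uimc1 are low on wild-type replicates 3, 4 and 5 and not on 2 and 6, whereas Babam2 is high on wild-type replicates 3 and 5.

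Damage tolerance had 4 of 6 genes higher and 2 lower, with a median of 0.10. Rad18, the ubiquitin ligase that marks a stalled replication clamp, was at 7.75, 7.96, 7.57 and 7.84 in the knockout arrays, against 7.85, 7.43, 7.64, 6.91 and 7.68 in the wild-type arrays, a difference of 0.28 (95% interval -0.13 to 0.68), with wild-type replicate 5 lowest, and of 0.13 without that array. Polq, the polymerase of microhomology-mediated joining, had -0.093 (95% interval -0.33 to 0.14). The 4 direct reversal genes were split, 2 higher and 2 lower, at a median of 0.072. Mgmt, which takes methyl groups off guanine, was at 6.69, 6.82, 6.72 and 7.02 in the knockout arrays, against 6.82, 6.92, 7.82, 6.63 and 6.82 in the wild-type arrays, and its difference of -0.19 (95% interval -0.69 to 0.30) came to 0.013 without wild-type replicate 4. Alkbh2, a dioxygenase that removes alkyl groups from DNA, had -0.18 (95% interval -0.39 to 0.038), and Fto, a demethylase of the same family, 0.32 (95% interval -0.19 to 0.84).

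SMC complexes and chromatin factors had 9 of 13 genes higher and 4 lower, with a median of 0.14. Smc6 was at 9.55, 9.24, 9.07 and 9.66 in the knockout arrays, against 9.65, 8.97, 8.47, 8.97 and 9.64 in the wild-type arrays, a difference of 0.24 (95% interval -0.32 to 0.81), which was 0.075 without wild-type replicate 4 and 0.037 with array weights. Its partner Smc5, with which it holds sister chromatids together during recombination, differed by 0.21 (95% interval -0.14 to 0.56). Cul4a, the scaffold of a ubiquitin ligase at damaged chromatin, differed by 0.21 (95% interval -0.068 to 0.48). Ruvbl2, an ATPase of chromatin remodelling complexes, had -0.20 (95% interval -0.63 to 0.22), with knockout replicate 4 at 6.38 and the other 8 arrays between 7.09 and 7.43. The 32 listed chromatin genes that are not among the 171 had a median of 0.054.

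Of the 42 genes in no pathway list, 26 had higher and 16 lower values, with a median of 0.016. Smg1, a kinase of the ATM family that also acts in nonsense-mediated decay, was at 9.05, 9.32, 9.29 and 9.16 in the knockout arrays, against 9.10, 8.78, 8.94, 8.95 and 9.10 in the wild-type arrays. Its difference was 0.23 (95% interval 0.020 to 0.44), and knockout replicate 2 lay inside the wild-type range. Ticrr, which is known for the start of replication although its annotation here does not carry that term, was at 7.77, 7.73, 7.85 and 7.78 in the knockout arrays, against 7.70, 7.57, 6.83, 7.72 and 7.67 in the wild-type arrays. The groups met at 7.73 in knockout replicate 3 and 7.72 in wild-type replicate 5, and the difference was 0.28 (95% interval -0.11 to 0.68). Without wild-type replicate 4, at 6.83, it was 0.12. Its promoter window (RefSeq, GRCm38.p6, chr7:79659946-79660245, plus strand, 5′ to 3′) is shown as the 1 among the genes without overlap that holds a CACCC box, in capitals.
Ticrr: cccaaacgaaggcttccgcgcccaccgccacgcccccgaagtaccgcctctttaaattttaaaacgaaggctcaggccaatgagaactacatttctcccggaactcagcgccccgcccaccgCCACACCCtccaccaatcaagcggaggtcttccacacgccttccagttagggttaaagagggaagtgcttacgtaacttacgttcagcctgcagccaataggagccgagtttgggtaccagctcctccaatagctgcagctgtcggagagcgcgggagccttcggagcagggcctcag

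Hspa1a, an inducible heat shock protein, had the widest range of the 171 genes. It was at 9.80, 6.85, 6.98 and 6.98 in the knockout arrays, against 6.87, 7.03, 6.92, 6.98 and 6.95 in the wild-type arrays. Knockout replicate 2 stood apart from the other 8 arrays, and without it the difference of 0.70 (95% interval -0.52 to 1.93) was -0.011. The other Hspa1a rows differed by 1.01 and 0.59, and the near-identical copy Hspa1b may share their signal. Pnp, a purine nucleoside phosphorylase, was at 8.25, 8.25, 8.07 and 9.51 in the knockout arrays, against 8.58, 7.77, 7.49, 7.40 and 8.63 in the wild-type arrays, a difference of 0.55 (95% interval -0.27 to 1.37), with knockout replicate 5 highest. Its neighbouring copy Pnp2 may be read by the same probes. Eef1e1, a factor of the tRNA synthetase complex that enters the nucleus on damage, was at 7.14 in wild-type replicate 3 and between 8.25 and 9.05 on the other 8 arrays.

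Not every gene was measured well. Of the 171 genes, 158 were above the negative-control median on all 9 arrays, 7 on some and 6 on none, namely Eya4, Trank1, Mus81, Neil2, Dmc1 and Ccno. For these 6 a difference near 0 says nothing of the transcript. On the chromosome of Klf5, 14, lie 8 of the 171 genes, of which 7 had higher values in knockout. The 7 include Neil2, at 0.034, which is 1 of the 6 genes just named. Higher values were held by 61.4% of the 171 genes and 44.1% of all rows. The share over all rows of chromosome 14, and the distance of each gene from Klf5, were not computed. The 8 genes include Apex1, Pnp and Ercc6, and whether DNA linked to the targeted allele has a part in their values was not tested. Another 8 lie on X, among them Fancb and Brcc3. Every knockout array held Xist signal, whereas wild-type replicates 2, 3 and 4 did not. Sex and genotype therefore cannot be fully told apart in these arrays.

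The 35 DNA repair genes that also carry a replication or mitosis term had 26 higher and 9 lower values, with a median of 0.11, and 3 of them (8.57%) were at unadjusted p under 0.05, all higher in knockout, against 4.08% of all rows in either direction and 1.45% higher. Proliferation genes had 21 of 31 higher and 10 lower, with a median of 0.071. Cdt1, which licenses replication origins, differed by -0.31 (95% interval -0.63 to 0.001), and Ccne2, a cyclin of the entry into S phase, by -0.29 (95% interval -0.58 to 0.003), the pair of smallest p in that list. Targets of p53, which respond to DNA damage, had 12 of 31 higher and 19 lower, at a median of -0.036, and their differences ran from -0.31 to 0.32. The pair of smallest p in the list both had higher values in knockout. Ppm1d, a phosphatase that ends the damage signal, was at 7.51, 7.56, 7.35 and 7.45 in the knockout arrays, against 7.42, 6.87, 6.76, 7.29 and 7.39 in the wild-type arrays, a difference of 0.32 (95% interval -0.012 to 0.66), while a second Ppm1d row differed by -0.07. Bax, an inducer of apoptosis, differed by 0.19 (95% interval -0.093 to 0.47). No gene of these 3 lists passed adjustment over all rows (lowest limma adjusted p = 0.916).

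In the pair of arrays normalized apart, the lean ran the other way. There 67 of the 171 genes were higher and 103 lower in knockout, with a median difference of -0.027, against 0.008 for all rows. The mean signal was 8.09 in the knockout array and 8.14 in the wild-type array. The sign was that of the 9-array table for 73 of 171 genes. Of the 5 genes named above for higher values at unadjusted p under 0.05, only Msh3 kept its sign, with 8.43 in the knockout array and 8.37 in the wild-type array. Rad17 had 7.34 in the knockout array against 7.61 in the wild-type array. Dclre1c had 7.31 in the knockout array against 7.60 in the wild-type array, and Apex1 9.49 in the knockout array against 9.63 in the wild-type array. Smg1 had 9.89 in the knockout array against 10.03 in the wild-type array. This pair has no replicate and carries no test.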

How the data were processed

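Gene expression was measured in samples of 5 knockouts and 6 wild types. A 9-array and a 2-array table, normalized separately, hold the log2 RMA signals per transcript cluster that the authors deposited. The values are at gene level with default settings per the file headers. The submitters' processing notes name Affymetrix Expression Console, without a version. A deposited table of log2 values of all 11 arrays equalled the RMA columns within 5e-05, which tied each array to its replicate number. The genotypes of both agreed.

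Of 35556 rows, 6612 control rows were left out. All 171 members matched RefSeq (GRCm38.p6), 19 symbols were updated and 13 genes had several rows. Differences are knockout minus wild type, from a two-sided limma 3.58.1 fit (lmFit, eBayes, no block) in R 4.3.3, Benjamini-Hochberg adjusted over 28944 rows. The 2-array table was not tested. On simulated data of 28944 rows the fit called 16% of the rows changed by 1.41-fold and 66% of those changed by 2-fold. It called 92% for 4-fold and 96% for 8-fold, beside 7 false calls. The simulated noise was normal and independent between rows, and only rows brighter than the median were changed. Differences that many genes share between the real arrays were not simulated, so these shares may not hold for the real data.

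The members and all lists (10 repair pathways, 2 comparison lists and 6 marker lists) were chosen with earlier results of these data known. The named genes are Klf5, anchors of each pathway, the member of smallest p per pathway and direction, members at unadjusted p under 0.05 or without overlap, and the 6 of widest range, with exceptions stated where they stand. Some items that this rule takes in are not reported here. Alternatives covered the value table, 2 normalizations, dim rows, the variance model, array weights, all 11 arrays, each array left out, replicate blocks, the methods' t-test, arrays with both sex-linked signals left out, the mean of a gene's rows and a wider member rule. The block on the numbers in the column names was chosen after seeing the data. Figures were drawn with matplotlib 3.10.9 in Python 3.11.15.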

Additional observations from a re-analysis of the deposited data

Results flagged for a closer look

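The 59 named repair genes, Klf5, and the means of the 10 pathway lists and of all members made 142 groups of 4 or 5 arrays, which were screened for an array far from the others. Of these, 18 held one. Chance gives about 7 for genes picked without regard to their values, with normal spread and no equal values. Some of these genes were picked for a small p or a wide range, and equal values are common. Whether 18 exceeds chance was therefore not tested. Knockout replicate 2 was high in Hspa1a at 9.80 and in Prkdc at 8.07. Knockout replicate 3 was high in Apex1 at 9.39 and in Ogg1 at 6.91, and low in Xrcc1 at 6.53. For Ogg1 the gap was small, with the other knockout arrays at 6.885. Knockout replicate 4 was low in Abraxas1 at 6.66, and knockout replicate 5 was high in Pnp at 9.51.

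Wild-type replicate 2 was high in Mdc1 at 8.19 and in Xab2 at 7.71. Wild-type replicate 3 was low in Fanca at 6.54 and high in Eme2 at 6.60. Wild-type replicate 4 was low in Atm at 7.25, in Atr at 7.52 and in Ticrr at 6.83, and high in Mgmt at 7.82. Wild-type replicate 5 was low in Cul4a at 6.71 and in Xrcc4 at 6.50, and high in Faap100 at 6.58. Apex1, Eme2 and Ticrr, which are among the genes at unadjusted p under 0.05 or without overlap, thus each hold an outlying array.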

How the results depend on the processing

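No repair gene passed adjustment in any of the 23 fits, or among the 206 genes of the wider member rule, and the lowest limma adjusted p of a named gene over all fits was 0.733. The count of repair genes at unadjusted p under 0.05, 6 as reported, was 3 of the 153 left (1.96%, against 4.12% of all rows) with dim rows left out, 2 (1.17%, against 4.28%) with array weights and 1 (0.585%, against 3.25%) with all 11 arrays and a table term. When 1 array was left out it was 0 to 10. The methods' t-test gave 5, of which 2 were higher and 3 lower. The median difference stayed above 0 in every fit, from 0.005 with array weights to 0.086, but median centring moved the median of all rows to 0.015, with the members at 0.070, against -0.019 and 0.036 as reported. The number of genes with an interval within 1 log2 unit of 0 was 152 to 162 when 1 array was left out.

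Whether the samples were paired is not known. Deviations from the group mean correlated between same-numbered arrays at -0.242 to 0.133 by title and at -0.051 to 0.404 by description. By column name the correlations were 0.066 to 0.404. Any difference that arrays share also enters these correlations, so they cannot settle whether a numbering pairs the samples. At unadjusted p under 0.05 the replicate block gave 15 genes, all higher in knockout (8.77%, against 5.80% of all rows), with the numbers of the descriptions. It gave 7 (4.09%, against 5.27%) with those of the titles and 4 (2.34%, against 4.01%) with those of the column names.

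The sign turned in 12 named genes. With array weights Ogg1 was at -0.004, Xpc at -0.018, Brca2 at -0.060, Chek1 at -0.015 and Pms2 at 0.000. With quantile normalization Ogg1 was at -0.009 and Brca2 at -0.016. With median centring Parp1 was at 0.034, Ercc1 at 0.010 and Pms2 at 0.021, and with all 11 arrays Ercc1 was at 0.006. Without the arrays that held both sex-linked signals Xpc was at -0.018, Ercc1 at 0.037, Brca2 at -0.044, Fancl at -0.106, Hspa1a at -0.035 and Pms2 at 0.097. With the replicate block by title Ogg1 was at -0.003, Parp1 at 0.056, Ercc1 at 0.028 and Xrcc5 at 0.017. By description Parp1 was at 0.007, Ercc1 at 0.021 and Xrcc6 at 0.061, and by column name Ogg1 was at -0.027, Chek1 at -0.003 and Eef1e1 at -0.054.

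Leaving out 1 array turned the sign of 15 named genes. The ranges were -0.027 to 0.18 for Atm, -0.033 to 0.142 for Brca2, -0.012 to 0.32 for Chek1, -0.054 to 0.423 for Eef1e1, -0.12 to 0.035 for Ercc1 and -0.074 to 0.355 for Fancl. They were -0.011 to 0.973 for Hspa1a, -0.285 to 0.013 for Mgmt, -0.027 to 0.068 for Ogg1, -0.147 to 0.086 for Parp1 and -0.088 to 0.055 for Pms2. For Ruvbl2, Xrcc4, Xrcc5 and Xrcc6 they were -0.332 to 0.02, -0.001 to 0.431, -0.211 to 0.036 and -0.193 to 0.089. The cause was not tested for any of these.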
